A study of Homo sapiens with 12 samples.

Results

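The genes described here are 7 transcription factors that set lung and foregut identity, with 2 surfactant protein genes: NKX2-1, FOXA1, FOXA2, GATA6, HNF4A, SOX2, SOX9, SFTPB and SFTPD. They were chosen by name as an identity check of the cells, by no cut on their values but with earlier results of these data known. They are 9 of the 61541 genes in the count table. All 9 were found, and 8 passed the filter on low counts and were tested. SFTPB did not pass and is given by its counts.

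Transcripts were sequenced from A549, an established lung adenocarcinoma line, 14 days after cells were transduced with a Cas9 guide, with no drug treatment named. Control cells carried the non-targeting guide gNTC1, and knockout cells (TS-KO) carried a guide against TYMS, which encodes the thymidylate synthase of DNA synthesis. Each was grown alone or in co-culture, which gives 4 groups of 3 libraries. The co-culture partner of the knockout was parental A549 according to the series text. The partner of the control, any separation of the cells before lysis, and whether a culture is a pool or a clone are not given in the sources used here.

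NKX2-1 is the homeodomain factor that specifies the lung and thyroid field of the foregut and later drives surfactant genes in alveolar type 2 cells, together with the forkhead pioneer factors FOXA1 and FOXA2. GATA6 is a zinc finger factor of the endoderm. HNF4A is a nuclear receptor that maintains liver and gut programmes. SOX2 marks the proximal airway in the developing lung and SOX9 its distal tips. SFTPB encodes a hydrophobic protein needed for the surfactant film, and SFTPD a secreted collectin of host defence. As background, A549 is commonly described as an alveolar type 2 model with little NKX2-1.

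The 12 libraries held 14921371 to 35723762 counts, and 1 CPM (TMM-scaled counts per 1e6 counts) stood for 16.1 to 33.5 counts. Values below are CPM for replicates 1, 2 and 3 in that order. A ± after a mean CPM is the SD (n = 3), and a ± after a log2 difference is its SE in the edgeR fit. Calls are at an adjusted p under 0.05. The labels do not say that replicates came from separate cultures, so the p-values measure only the spread between these libraries, which may be technical. Fold changes followed the GC content of transcripts across 16505 genes, with Spearman correlations of -0.386 for knockout against control alone, -0.106 in co-culture, 0.435 for co-culture against monoculture of the knockout and -0.371 for that of the control. The correlation was 0.533 for the difference between those last 2 comparisons, the interaction.

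The labels were checked before the results. TYMS was lower in the knockout, at 20.9 ± 0.547 CPM against 95.4 ± 5.27 CPM alone (adjusted p = 7.29e-09) and at 11.05 ± 0.360 against 93.4 ± 2.67 CPM in co-culture. A549 is known to carry a deletion that removes CDKN2A and MTAP. CDKN2A had 5069 counts in control monocultures and 5040 in control co-cultures, against 0 and 4 counts in those of the knockout. MTAP stood at 59.5 ± 18.2, 59.8 ± 5.74, 0.582 ± 0.0568 and 0.471 ± 0.163 CPM in the 4 groups (control alone and in co-culture, then knockout alone and in co-culture), and CDKN2B at 1.79 ± 0.178 and 2.30 ± 0.561 CPM in the control groups and at 0 in all 6 knockout libraries. In these genes the 6 libraries labelled control go against the label A549, and the 6 labelled knockout do not. All control libraries share this, so no comparison of knockout with control can be given without them, and the guide cannot be told apart from whatever else separates the cultures. The comparison of co-culture with monoculture of the knockout takes its difference from knockout libraries alone.

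In monoculture, 6 of the 8 tested genes were called between knockout and control, where 56.6% of all 16768 genes tested were called in this comparison. FOXA1, FOXA2 and HNF4A were higher in the knockout (28% of all genes were), and NKX2-1, SOX2 and SOX9 were lower (28.6% were). The 3 control and 3 knockout libraries did not overlap for these 6 genes, which held for 65.2% of all genes. With so wide a background, the number of calls is not particular to these genes, and the description rests on the size and direction of each. The median log2 difference of the 8 was 0.32, beside 0.09 over all genes tested. In bulk RNA, fewer cells with a transcript and less transcript per cell cannot be told apart.

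**Figure D1:**
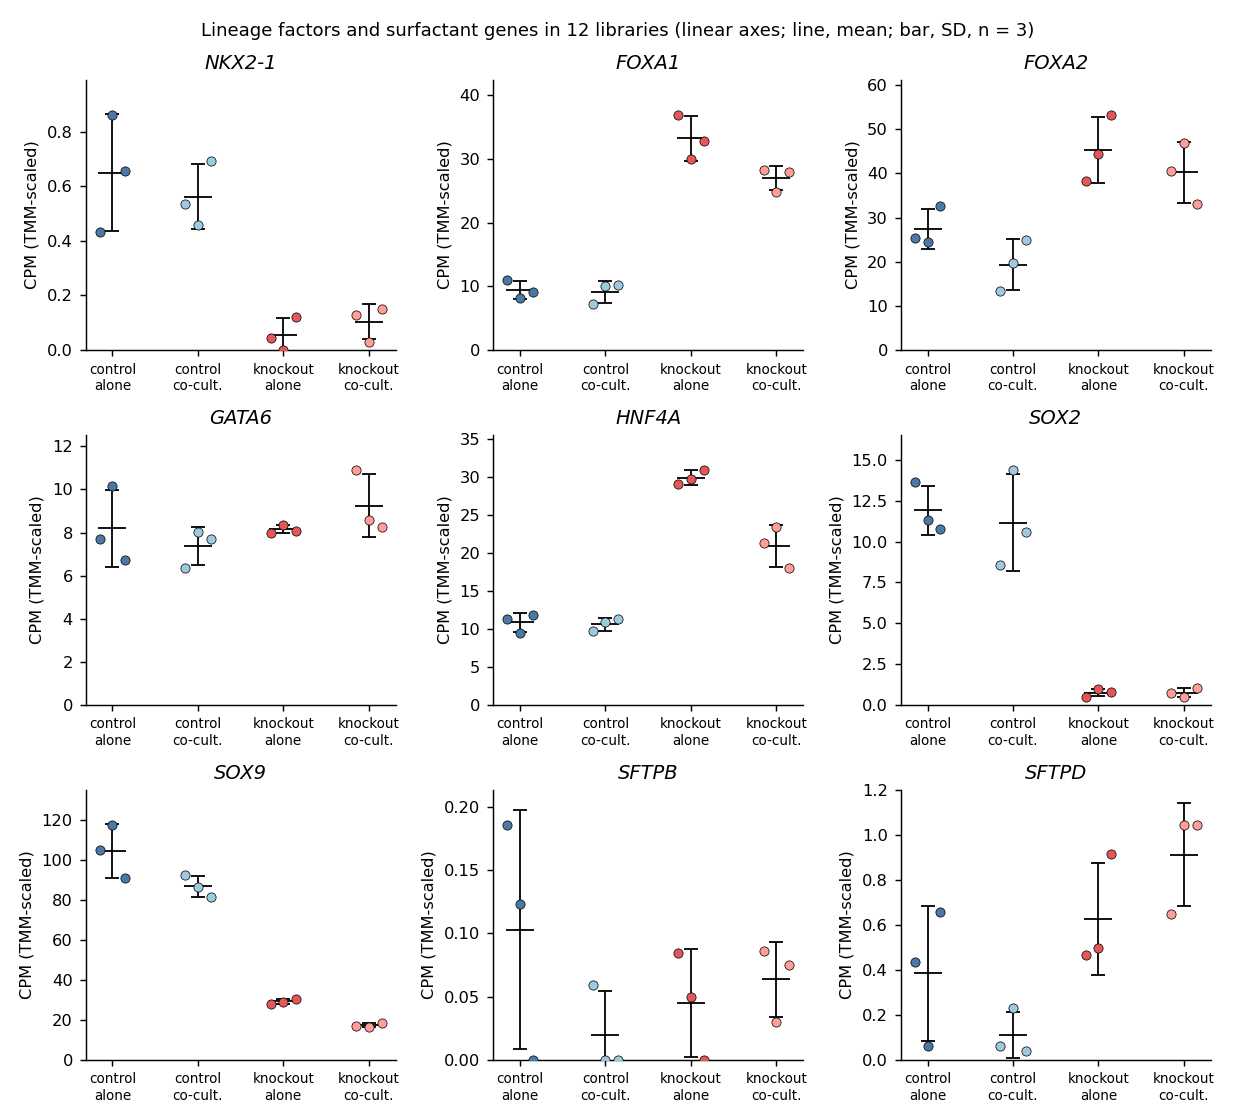
Level of each gene in each of the 12 libraries (TMM-scaled CPM, linear axes that differ between panels), with the mean as a line and the SD over 3 libraries as a bar. SOX2 lay between 8.55 and 14.4 CPM in the control libraries and between 0.477 and 1.01 CPM in the knockout libraries, FOXA1 and HNF4A lay higher in every knockout library than in any control library, and GATA6 lay between 6.35 and 10.9 CPM throughout.

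NKX2-1 (ENSG00000136352; GRCh38 chr14:36516392-36521149, minus strand), the lung lineage factor, was near the limit of detection everywhere. It had 7, 14 and 12 counts in control monocultures and 9, 12 and 17 in control co-cultures, which is 0.434 to 0.862 CPM. It had 1, 0 and 2 counts in knockout monocultures and 3, 1 and 4 in knockout co-cultures. Every control library therefore held more NKX2-1 counts than any knockout library, but no library held more than 17. The log2 difference was -3.55 ± 0.70 alone (adjusted p = 0.00086) and -2.47 ± 0.57 in co-culture (adjusted p = 0.00307). NKX2-1 passed the count filter through the control libraries, where it is high, as no knockout library held more than 4 counts. These p-values are therefore no independent support for the direction. Alone, the fitted size moved to -4.55 without replicate 3 of the knockout monoculture and to -2.94 with offsets for transcript GC. From summed counts, the control level was 13.1 times that of the knockout alone (33 against 3 counts; exact 95% interval 4.1 to 66.5) and 5.88 times in co-culture (38 against 8 counts; 2.7 to 14.6). These intervals cover counting error only. NKX2-1 shares 402 exon bases with the antisense gene NKX2-1-AS1, which had 0 counts in all 12 libraries, and the strand setting of the counting is not given in the sources used here.

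The surfactant genes were at the floor or close to it. SFTPB (ENSG00000168878; chr2:85657314-85668741, minus strand) had 3, 2 and 0 counts in control monocultures, 1, 0 and 0 in control co-cultures, 2, 1 and 0 in knockout monocultures and 2, 1 and 2 in knockout co-cultures. No library exceeded 3 counts, so a difference in SFTPB was not detectable at this depth: the ratio of control to knockout was 1.98 alone (interval 0.385 to 12.7) and 0.247 in co-culture (0.00523 to 2.21). SFTPD (ENSG00000133661; chr10:79937740-79982614, minus strand) had 7, 1 and 12 counts in control monocultures and 1, 6 and 1 in control co-cultures. It had 11, 10 and 15 counts in knockout monocultures and 15, 35 and 28 in knockout co-cultures. In CPM the SFTPD means were 0.384 ± 0.3003, 0.110 ± 0.104, 0.625 ± 0.249 and 0.912 ± 0.230 in that order, and the monoculture groups overlapped.

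SFTPD did not pass the test alone, with a log2 difference of 0.64 ± 0.60 (adjusted p = 0.383; interval -0.55 to 1.82), and was higher in knockout co-cultures than in control co-cultures by 2.91 ± 0.65 (adjusted p = 0.00236). SFTPD passed the count filter through the knockout libraries, where it is high, so this last p-value is no independent support. The control co-cultures held 8 SFTPD counts over 3 libraries against 78 in knockout co-cultures, and without replicate 2 of the control co-culture, which held 6 of the 8, the difference was 4.09. The interaction was 2.28 ± 0.92 and did not pass (adjusted p = 0.222). Further surfactant protein genes, named after their values were seen, were also near 0: SFTPA1 had 0 counts in every library, SFTPA2 at most 7 in a group and SFTPC at most 11. SFTPD was the only surfactant protein gene of the 5 that passed the count filter.

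The windows before the RefSeq starts (GRCh38.p14) of both surfactant genes are shown because SFTPB is a textbook target of NKX2-1 and both genes had so few counts. Capitals mark a match to the NKX2-1 type motif GCNCTNNAG or CACTTGA, searched on both strands. SFTPB lies at chr2:85668742-85668991 and SFTPD at chr10:79949106-79949355, both on the minus strand and printed in the direction of transcription. The RefSeq start of SFTPD lies inside the span of the gene given above, and its first bases were not found near the start of a GENCODE transcript.
SFTPB: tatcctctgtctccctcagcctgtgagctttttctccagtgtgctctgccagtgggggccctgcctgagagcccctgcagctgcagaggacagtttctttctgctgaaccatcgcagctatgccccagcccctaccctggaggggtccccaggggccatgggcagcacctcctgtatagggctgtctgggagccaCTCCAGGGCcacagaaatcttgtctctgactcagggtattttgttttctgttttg
SFTPD: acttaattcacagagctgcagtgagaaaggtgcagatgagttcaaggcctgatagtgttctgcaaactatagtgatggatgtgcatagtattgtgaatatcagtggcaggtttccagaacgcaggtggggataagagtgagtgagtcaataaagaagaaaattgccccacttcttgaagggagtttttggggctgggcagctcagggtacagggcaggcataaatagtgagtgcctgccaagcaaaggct
SFTPB held GCNCTNNAG on the opposite strand at positions -55 to -47 from the start, and SFTPD held no match to the motifs searched. Of 35116 promoter windows of 250 bases, 15.9% held an NKX2-1 type match, so the match in SFTPB is a description and not a shown site. The GC content was 58% in the SFTPB window and 46.8% in that of SFTPD, beside a median of 58% over all windows. CpG dinucleotides stood at 0.0478 (SFTPB) and 0.0822 (SFTPD) of the number that base composition gives, beside a median of 0.558.

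The forkhead factors were higher in the knockout. FOXA1 (ENSG00000129514; chr14:37589984-37596059, minus strand), a pioneer factor that opens chromatin for nuclear receptors and lineage factors, stood at 11.03, 8.13 and 9.07 CPM in control monocultures and at 7.18, 9.99 and 10.2 CPM in control co-cultures. It stood at 36.9, 29.9 and 32.9 CPM in knockout monocultures and at 28.2, 24.8 and 27.9 CPM in knockout co-cultures. Every knockout library was at least 24.8 CPM and no control library was above 11.03 CPM. FOXA1 was 3.53-fold higher alone (log2 1.82 ± 0.18, adjusted p = 3.37e-06) and 2.94-fold higher in co-culture (1.56 ± 0.18, adjusted p = 1.33e-05). It shares 16 exon bases with TTC6 on the opposite strand, which had 2 to 35 counts per library against 121 to 872 for FOXA1.

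FOXA2 (ENSG00000125798; chr20:22581005-22585455, minus strand), its close relative with a role in foregut endoderm, showed a smaller step. Its levels were 25.3, 24.5 and 32.6 CPM in control monocultures, 13.4, 19.8 and 24.9 CPM in control co-cultures, 38.4, 44.3 and 53.2 CPM in knockout monocultures and 40.6, 46.9 and 33.1 CPM in knockout co-cultures. The lowest knockout library and the highest control library lay close together, at 33.1 and 32.6 CPM. FOXA2 was 1.65-fold higher alone (log2 0.72 ± 0.22, adjusted p = 0.0148) and 2.07-fold higher in co-culture (1.05 ± 0.22, adjusted p = 0.00174). The call alone was lost without replicate 2 of the control monoculture (adjusted p = 0.0644) or replicate 3 of the knockout monoculture (adjusted p = 0.0691), while offsets for transcript GC raised the log2 difference to 1.18. FOXA3, the third forkhead factor of this group and a liver and gut gene, moved the other way, from 21.0 ± 5.81 to 1.04 ± 0.540 CPM alone (log2 -4.36 ± 0.37, adjusted p = 7.91e-07). It was named after its value was seen.

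GATA6 (ENSG00000141448; chr18:22169443-22202528, plus strand) did not pass the test in any comparison. It stood at 7.69, 10.2 and 6.72 CPM in control monocultures and at 8.0003, 8.36 and 8.09 CPM in knockout monocultures. Control co-cultures stood at 6.35, 8.04 and 7.70 CPM and knockout co-cultures at 10.9, 8.59 and 8.25 CPM. The monoculture groups overlapped, and the log2 difference alone was -0.01 ± 0.21 (adjusted p = 0.984), with an approximate 95% interval of -0.42 to 0.41. In co-culture the groups did not overlap and the difference was 0.32 ± 0.21 (adjusted p = 0.215; interval -0.08 to 0.73). The sign alone was not settled: the difference was 0.15 with library size only, 0.28 with GC offsets, 0.0049 with the replicate block and 0.17 without replicate 2 of the control monoculture. GATA6-AS1, which shares 240 exon bases with GATA6 on the opposite strand, had 0 to 13 counts per library.

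HNF4A (ENSG00000101076; chr20:44355700-44434596, plus strand), the liver and gut nuclear receptor, was higher in the knockout and had tight replicates. It stood at 11.3, 9.49 and 11.9 CPM in control monocultures and at 9.68, 10.9 and 11.3 CPM in control co-cultures. The knockout monocultures stood at 28.996, 29.7 and 30.9 CPM and knockout co-cultures at 21.3, 23.4 and 17.9 CPM. The 4 groups formed 3 separate levels, with both control groups together at the bottom and knockout monocultures on top. HNF4A was 2.74-fold higher alone (log2 1.46 ± 0.16, adjusted p = 7.5e-06) and 1.97-fold higher in co-culture (0.98 ± 0.16, adjusted p = 0.000217).

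SOX2 and SOX9 were lower in the knockout. SOX2 (ENSG00000181449; chr3:181711924-181714436, plus strand), the proximal airway and stem cell factor, stood at 13.6, 11.3 and 10.8 CPM in control monocultures and at 8.55, 14.4 and 10.6 CPM in control co-cultures. It stood at 0.508, 0.946 and 0.791 CPM in knockout monocultures and at 0.733, 0.477 and 1.01 CPM in knockout co-cultures, or 12 to 27 counts per library. The control libraries were all at least 8.55 CPM and the knockout libraries all at or below 1.01 CPM. SOX2 was 15.96-fold lower alone (log2 -4.00 ± 0.34, adjusted p = 7.19e-07) and 15.2-fold lower in co-culture (-3.92 ± 0.33, adjusted p = 7.6e-07). The drop of NKX2-1 alone, with few counts, had an interval that holds this value. SOX2 lies within the span of SOX2-OT but shares no exon bases with it, and SOX2-OT had 0 to 4 counts per library.

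SOX9 (ENSG00000125398; chr17:72121020-72126420, plus strand), the distal tip and cartilage factor, was the most abundant of the 9 in control cells. Its levels were 105, 118 and 90.8 CPM in control monocultures and 92.3, 86.5 and 81.6 CPM in control co-cultures. They were 28.1, 28.9 and 30.6 CPM in knockout monocultures and 17.0, 16.3 and 18.5 CPM in knockout co-cultures. Monoculture and co-culture libraries of the knockout did not overlap, and every knockout library lay far below the control. SOX9 was 3.58-fold lower alone (log2 -1.84 ± 0.13, adjusted p = 1.27e-07) and 5.02-fold lower in co-culture (-2.33 ± 0.13, adjusted p = 2.03e-08).

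The windows of HNF4A and SOX2 are printed because these genes gave a large step in each direction. Capitals mark the GATA motif AGATAA in HNF4A and the SOX motif ACAAAGG in SOX2, at positions -26 to -21 and -220 to -214. The windows lie at chr20:44355449-44355698 and chr3:181711675-181711924, on the plus strand.
HNF4A: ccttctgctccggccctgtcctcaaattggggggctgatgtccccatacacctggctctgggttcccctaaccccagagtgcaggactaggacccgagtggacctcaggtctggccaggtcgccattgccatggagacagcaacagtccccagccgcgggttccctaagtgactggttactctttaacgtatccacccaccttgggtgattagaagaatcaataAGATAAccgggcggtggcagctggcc
SOX2: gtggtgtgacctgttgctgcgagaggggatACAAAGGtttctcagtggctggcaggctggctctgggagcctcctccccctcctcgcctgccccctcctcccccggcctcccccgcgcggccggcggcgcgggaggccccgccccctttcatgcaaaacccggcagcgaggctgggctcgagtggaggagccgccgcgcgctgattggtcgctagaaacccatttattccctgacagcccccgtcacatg
Both strands of every window were searched for 5 motifs. The forkhead motif was searched as TGTTTAC, as its common variant TGTTTGC and also as the variant written TATTTAC, and 8.27% of all windows held it. An HNF4A direct repeat was searched as CAAAGTCCA and CAAAGGTCA and was held by 0.664%. The GATA motif AGATAA was held by 9.17%, the SOX motif, searched as ACAATGG and in the second form ACAAAGG, by 6.91%, and the NKX2-1 type by 15.9%. The ACAAAGG of the SOX set shares letters with the HNF4A repeat. The SOX2 window had a GC content of 68.8% and that of HNF4A 58.4%. Of the 9 genes, 7 had a window in the table. NKX2-1 and FOXA1 each held the forkhead letters TGTTTGC, at -241 to -235 and, on the opposite strand, at -235 to -229. Both windows lie inside the GENCODE span of their gene, and the first bases after the FOXA1 start were not found near the start of a GENCODE transcript. GCNCTNNAG was found in FOXA1 at -49 to -41 and in GATA6, on the opposite strand, at -180 to -172.

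**Figure D2:**
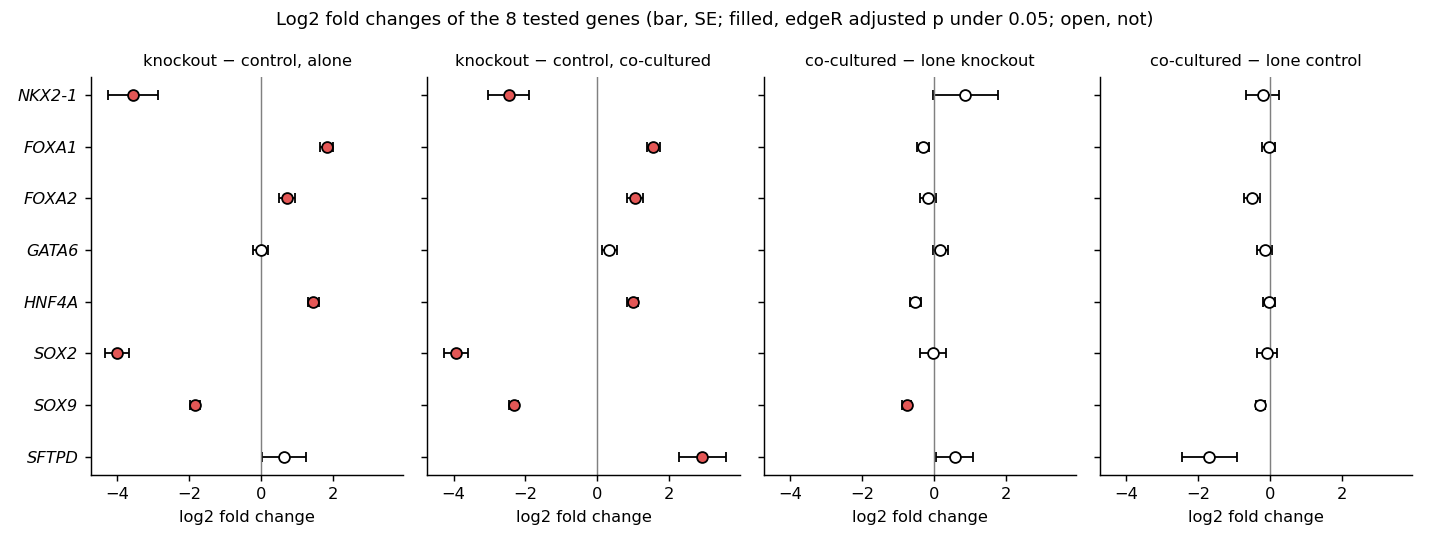
Log2 fold change of the 8 tested genes in 4 comparisons, with the SE as a bar; filled points had an adjusted p under 0.05. The first 2 panels show NKX2-1, SOX2 and SOX9 to the left of 0 and FOXA1, FOXA2 and HNF4A to the right in both settings, and SOX9 at -0.76 is the only filled point for co-culture against monoculture of the knockout.

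In co-culture, 7 of the 8 were called between knockout and control, where 49.4% of all genes were: FOXA1, FOXA2, HNF4A and SFTPD higher (24.1% of all genes) and NKX2-1, SOX2 and SOX9 lower (25.3%). All 8 had groups that did not overlap, against 55.4% of all genes. The median log2 difference was 0.65, beside -0.02 over all genes. The comparison in co-culture uses other libraries than the one in monoculture, and each of the 6 genes called alone was called in the same direction. How many of all genes were called alike in both comparisons was not counted, so the agreement is not shown to be particular to these 6. The same 6 share the caution on the control libraries given above.

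The next comparison asked whether these genes differed between the knockout co-culture, whose growth recovered according to the series text, and the knockout monoculture. SOX9 was the only one of the 8 called, where 11.4% of all genes were called (5.97% higher, 5.4% lower). It was 1.69-fold lower in co-culture (log2 -0.76 ± 0.13, adjusted p = 0.00323), away from the control level, and was called in all 20 fits, with -0.84 to -0.63. HNF4A and FOXA1 also had groups that did not overlap, which held for 31.5% of all genes. HNF4A differed by -0.51 ± 0.16 and just missed the threshold (adjusted p = 0.0513), and it passed with library size only (-0.58, adjusted p = 0.035), with GC offsets (-0.65, adjusted p = 0.00133) and without replicate 3 of the control monoculture (-0.53, adjusted p = 0.04996, at the threshold). FOXA1 differed by -0.30 ± 0.18 (adjusted p = 0.266), FOXA2 by -0.17 ± 0.22 (adjusted p = 0.631) and GATA6 by 0.18 ± 0.21 (adjusted p = 0.587).

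SOX2 gave -0.02 ± 0.36 (adjusted p = 0.982) for the same comparison, NKX2-1 0.88 ± 0.90 (adjusted p = 0.535) and SFTPD 0.59 ± 0.51 (adjusted p = 0.464). These 3 had the lowest counts of the tested genes and the widest errors. TYMS, SOX2 and CDKN2A, all high in the control, stood at 11.05 ± 0.360, 0.739 ± 0.265 and 0.0398 ± 0.0689 CPM in knockout co-cultures. The count over all genes rested on single libraries: it was 1907, and from 536 without replicate 1 to 5680 without replicate 3 of the knockout co-culture.

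Between control co-cultures and control monocultures 0 of the 8 genes and 0% of all genes were called by edgeR. At an unadjusted p under 0.05 there were 2 of the 8 and 540 of all genes, and DESeq2 called 0 of either. The 2 were FOXA2, at -0.50 ± 0.22 (adjusted p = 1), and SFTPD, at -1.69 ± 0.76 (adjusted p = 1). The control groups overlapped for all 8 genes, where 7.39% of all genes had groups that did not overlap. The interaction asks whether the shift with co-culture was unlike in knockout and control cells. It was called for 0 of the 8 and 1.8% of all genes (1.51% higher, 0.286% lower). At an unadjusted p under 0.05 it held 2, SOX9 at -0.49 ± 0.18 (adjusted p = 0.191) and SFTPD, and DESeq2 called 0. With GC offsets the interaction passed for SOX9 (-0.52, adjusted p = 0.0465) and HNF4A (-0.60, adjusted p = 0.0479). Whether the shift of these 2 genes with co-culture differed between knockout and control cells therefore depended on the processing, and with the replicate block added to the GC offsets neither passed (adjusted p = 0.0845 and 0.0911).

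The order of the 9 genes was compared per length, as mean CPM per kilobase of merged GENCODE exons. In control monocultures it ran SOX9 (26.5 ± 3.41), FOXA2 (10.5 ± 1.73), SOX2 (4.74 ± 0.604), FOXA1 (2.36 ± 0.372), GATA6 (2.08 ± 0.450) and HNF4A (1.49 ± 0.169), with SFTPD (0.290 ± 0.227), NKX2-1 (0.206 ± 0.0677) and SFTPB (0.0251 ± 0.0230) at the end. FOXA1 and GATA6, and SFTPD and NKX2-1, overlapped, and the other neighbours did not. In knockout monocultures the order ran FOXA2 (17.4 ± 2.87), FOXA1 (8.35 ± 0.881), SOX9 (7.42 ± 0.330), HNF4A (4.08 ± 0.133), GATA6 (2.07 ± 0.0481), SFTPD (0.473 ± 0.189), SOX2 (0.298 ± 0.0884), NKX2-1 (0.0173 ± 0.0195) and SFTPB (0.0109 ± 0.0104). FOXA2 thus took the place of SOX9, and SOX2 went from the third to the seventh place. The overlapping neighbours in knockout monocultures were FOXA1 with SOX9, SFTPD with SOX2, and NKX2-1 with SFTPB.

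Co-culture left most of the order in place. In control co-cultures FOXA2 (7.44 ± 2.20) overlapped SOX2 (4.44 ± 1.18), FOXA1 overlapped GATA6, and NKX2-1 (0.178 ± 0.0377) overlapped SFTPD (0.0832 ± 0.0788) and stood above it in the mean. In knockout co-cultures FOXA1 (6.78 ± 0.482) stood clear of SOX9 (4.39 ± 0.286), while HNF4A (2.86 ± 0.379) overlapped GATA6 (2.34 ± 0.367) and NKX2-1 overlapped SFTPB.

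**Figure D3:**
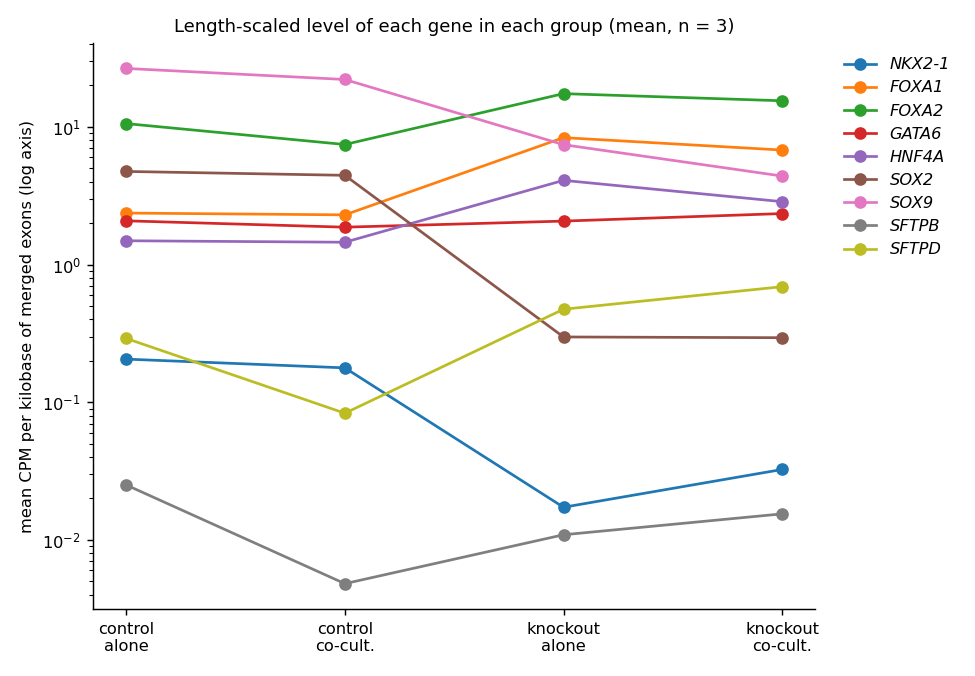
Mean level per length (CPM per kilobase of merged exons, log axis) of the 9 genes in the 4 groups, each point the mean of 3 libraries. SOX9 is on top at 26.5 in control monocultures, FOXA2 is on top at 17.4 in knockout monocultures, and the SOX2 line falls from 4.74 to 0.298 while GATA6 stays near 2.

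The genes around the lineage loci were read next. NKX2-8, a homeobox neighbour of NKX2-1, fell from 11.96 ± 2.08 to 3.81 ± 0.863 CPM alone (log2 -1.66 ± 0.31, adjusted p = 0.000581), and MBIP, on its other side, gave -0.40 ± 0.39 (adjusted p = 0.391). SOX9-AS1, whose span holds SOX9, fell from 27 counts to 1 over the 3 libraries (adjusted p = 0.000649). LINC00261, the neighbour of FOXA2, rose by 1.45 ± 0.44 (adjusted p = 0.0127) from 17 to 57 counts. In monoculture GATA6-AS1 went from 1 count to 23 (adjusted p = 0.00179) while GATA6 did not pass. The GATA6-AS1 contrast was much smaller in co-culture, with 7, 6 and 6 counts in control libraries and 12, 8 and 13 in knockout libraries. Of the 8 locus genes found, 5 were tested, and 2 were higher and 2 lower alone, where 28% and 28.6% of all genes were. NKX2-1-AS1, HNF4A-AS1 and SOX2-OT were too low to test.

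Markers of lung cell types gave counts in both directions, as did all genes: 28% of all genes were higher and 28.6% lower in this comparison, which is the background for every list below. Of 13 alveolar type 2 genes 7 were tested, with 1 higher, 2 lower and a median of 0.15 for knockout minus control alone. CTSH, the cathepsin H that helps process surfactant protein B, rose from 15.6 ± 2.53 to 30.6 ± 2.29 CPM (log2 0.97 ± 0.16, adjusted p = 0.000175). CEBPA, a factor of type 2 cell maturation, fell from 36.1 ± 9.02 to 12.6 ± 2.45 CPM (-1.52 ± 0.27, adjusted p = 0.000422). ETV5, a factor of type 2 identity downstream of FGF signalling, fell from 101 ± 7.06 to 49.6 ± 1.71 CPM (-1.02 ± 0.13, adjusted p = 1.99e-05). SFTPC, SFTPA1, SFTPA2 and SLC34A2 of the same list were at 0 to 11 counts per group. Of the other type 2 genes, named after their values were seen, ABCA3 and LPCAT1 were well expressed in all 4 groups (order as for MTAP above). ABCA3, the lipid transporter of lamellar bodies, stood at 86.2, 85.2, 119.9 and 144.2 CPM. LPCAT1, a surfactant lipid enzyme, stood at 223, 216, 247 and 234 CPM. LAMP3 (0.960, 1.18, 0.600 and 1.31 CPM) and NAPSA (0.735, 0.953, 1.06 and 1.65 CPM) were low in the same groups. PGC and SFTA2 had at most 2 counts in a group. ABCA3 did not pass alone (log2 0.48 ± 0.21, adjusted p = 0.0655) and was higher in the knockout in co-culture (0.76 ± 0.21, adjusted p = 0.00836).

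Of 11 alveolar type 1 genes 6 were tested, with 3 higher, 2 lower and a median of 0.39. CAV1, the caveolin coat protein, rose from 60.6 ± 12.8 to 339 ± 52.5 CPM (log2 2.49 ± 0.30, adjusted p = 1.72e-05), and AKAP5 rose by 2.35 ± 0.81 (adjusted p = 0.0253). EMP2 (-0.75 ± 0.15, adjusted p = 0.000904) and RTKN2 (-0.75 ± 0.25, adjusted p = 0.0216) fell. PDPN, AQP5, HOPX and CLIC5 of the same list, named after their values were seen, were at 0 to 5 counts per group. CLDN18, named in the same way, was at 0 to 17. Of 13 airway genes 7 were tested, with 1 higher, 4 lower and a median of -1.91. The mucin gene MUC5B fell from 52.1 ± 21.3 to 1.26 ± 0.0397 CPM (-5.36 ± 0.52, adjusted p = 2.43e-06) and SPDEF, a goblet cell factor, from 14.2 ± 5.03 to 0.584 ± 0.0997 CPM (-4.59 ± 0.37, adjusted p = 4.89e-07), while the basal cell factor TP63 rose by 1.26 ± 0.39 (adjusted p = 0.0141). In co-culture TP63 did not pass and stood at 1.35 ± 0.675 CPM in the knockout against 1.87 ± 0.507 CPM in the control (log2 -0.49 ± 0.39, adjusted p = 0.321). The basal keratin gene KRT5, added after its value was seen, was lower in the knockout alone, with 3 counts against 45 (adjusted p = 0.0053), and KRT14, which was too low to test, had 3 counts against 23. MUC5AC, another mucin gene of the list and also added after its value was seen, did not fall. Its means were 33.7 ± 16.5 CPM in control and 43.6 ± 4.97 CPM in knockout monocultures, and these groups overlapped. In co-culture the MUC5AC means were 28.8 ± 17.2 CPM (control) and 38.4 ± 1.72 CPM (knockout). MUC5B was higher in knockout co-cultures than in knockout monocultures, at 14.9 ± 2.13 CPM (3.56 ± 0.50, adjusted p = 0.000864), while SOX2 stood at 0.748 ± 0.222 and 0.739 ± 0.265 CPM in the monoculture and the co-culture.

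Of 13 neuroendocrine genes 6 were tested, with 3 higher, 2 lower and a median of 0.29. The granule protein gene CHGA rose from 0.183 ± 0.128 to 4.29 ± 0.608 CPM (log2 4.54 ± 0.41, adjusted p = 1.27e-06) and UCHL1, a ubiquitin hydrolase, from 245 ± 18.6 to 842 ± 77.5 CPM (1.78 ± 0.15, adjusted p = 5.56e-07). The synaptic vesicle genes SYT1 (-1.87 ± 0.39, adjusted p = 0.00122) and SYP (-0.93 ± 0.29, adjusted p = 0.0143) fell.

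HNF4A and the FOXA factors are liver and gut regulators too, and 28 hepatic and gastrointestinal genes were listed, of which 21 were tested, with 5 higher, 10 lower and a median of -0.88. CDX2, the intestinal homeobox factor, fell from 27.4 ± 3.59 to 0.760 ± 0.242 CPM (log2 -5.14 ± 0.30, adjusted p = 2.79e-08) and the fibrinogen gene FGB from 3.33 ± 1.17 to 0.0933 ± 0.0660 CPM (-5.00 ± 0.47, adjusted p = 1.89e-06). AFP, the fetal liver serum protein, had 0 counts in control monocultures and 83 in knockout monocultures (adjusted p = 4.53e-05), and TTR, a transport protein of the liver, had 3 and 34 (adjusted p = 0.00364). HNF4A thus rose in libraries where more of the tested liver and gut genes fell than rose, and those that fell include factors (CDX2, FOXA3) as well as secreted proteins (FGB).

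Among 14 epithelial regulators 12 were tested, with 3 higher, 6 lower and a median of -0.50. GRHL2, which keeps epithelial junction genes active, had 1026 counts in control monocultures and 0 in knockout monocultures, at least 135-fold lower against a floor of 3 counts per library (adjusted p = 3.49e-08). ETV4, a partner of ETV5 in lung branching, fell from 154 ± 20.9 to 26.4 ± 3.80 CPM (log2 -2.55 ± 0.18, adjusted p = 1.44e-07). FOXP1 (2.21 ± 0.32, adjusted p = 8.79e-05) and IRX2 (2.12 ± 0.44, adjusted p = 0.00124) rose. Of 19 SOX and GATA relatives 13 were tested, with 2 higher, 6 lower and a median of -0.29. SOX21, a relative and partner of SOX2 in the airway, fell by 3.53 ± 0.35 on the log2 scale (adjusted p = 2.51e-06) and SOX8, a relative of SOX9, by 3.22 ± 0.32 (adjusted p = 3.42e-06). GATA4 (1.54 ± 0.26, adjusted p = 0.000279) and SOX17 (0.98 ± 0.28, adjusted p = 0.00896), both endoderm factors, rose.

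Of the 6 keratin and adhesion genes, 1 was higher and 4 were lower (28% and 28.6% of all genes). EPCAM, an epithelial adhesion molecule, stood at 104 ± 13.6 CPM in control monocultures and at 0.620 ± 0.264 CPM in knockout monocultures (log2 -7.41 ± 0.30, adjusted p = 1.36e-09). KRT19 (-2.77 ± 0.26, adjusted p = 1.94e-06), CDH1 (-1.67 ± 0.19, adjusted p = 9.4e-06) and KRT8 (-0.94 ± 0.23, adjusted p = 0.00363) fell, KRT7 rose (1.64 ± 0.29, adjusted p = 0.000335) and KRT18 gave -0.43 ± 0.23 (adjusted p = 0.117). The simple epithelial keratins KRT8 and KRT18 stood at 3726 and 2262 CPM in knockout monocultures.

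Markers of other cell types were read in the same way. Of 15 such genes 8 were tested. In monoculture 1 was higher (ACTA2, from 4.95 ± 0.336 to 25.6 ± 1.04 CPM, adjusted p = 1.43e-07), 2 were lower (VWF and DES) and 5 were not called. In co-culture 2 were higher and 4 lower (24.1% and 25.3% of all genes). The summed level of the 15 was 27.7 to 32.1 CPM in control monocultures and 20.5 to 24.3 in control co-cultures. It was 47.5 to 52.5 in knockout monocultures and 42.4 to 55.1 in knockout co-cultures. ACTA2 lay at 3.44 to 5.14 CPM in the control libraries and at 24.5 to 37.1 CPM in the knockout libraries, so much of the rise in the sum was in this 1 gene. The leukocyte genes PTPRC, CD3E and MS4A1 and the fibroblast gene DCN were at or below 0.0243 CPM in every group mean. Collagen genes of the same list, named after their values were seen, differed in level. COL1A1 lay at 10.03 to 19.6 CPM in the control libraries and at 12.4 to 24.1 CPM in the knockout libraries. COL3A1 had 86 counts over the 6 control and 16 over the 6 knockout libraries, and COL1A2 had 0 and 4. The part of these markers in the results on the lineage factors was not tested.

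**Figure D4:**
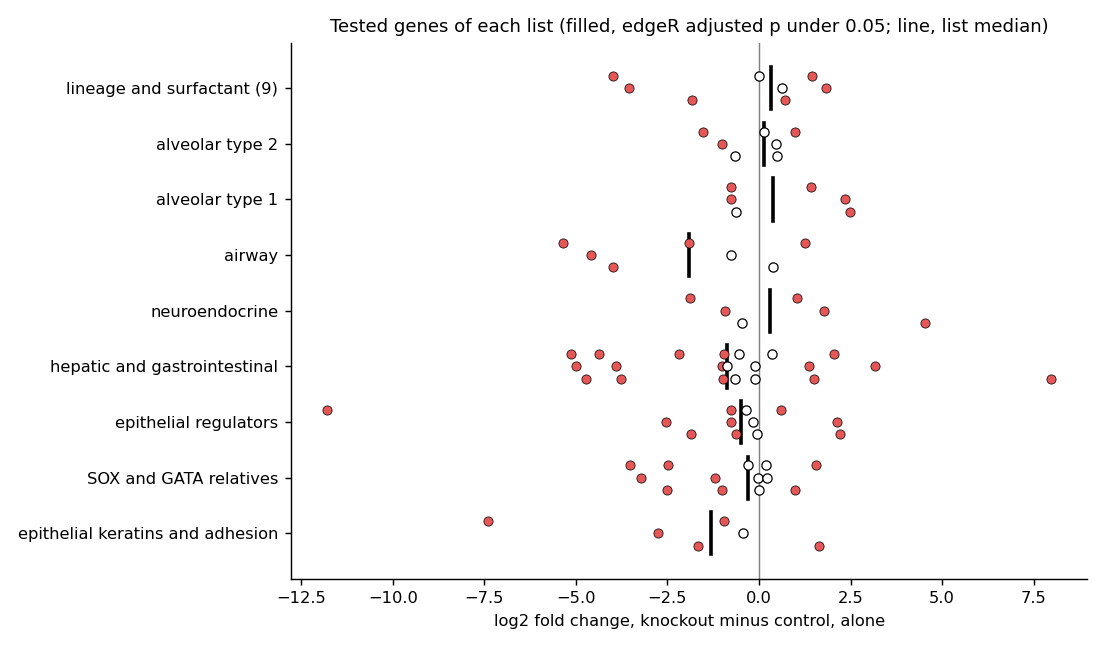
Log2 fold change (knockout minus control, alone) of every tested gene of the 9 lineage and surfactant genes and 8 marker lists, with a line at the list median; filled points had an adjusted p under 0.05. The genes at the loci, the markers of other cell types and the genes that check the labels are not drawn. The lists drawn hold points on both sides of 0, the airway median lies at -1.91 and GRHL2, with 0 counts in knockout monocultures, is the point farthest to the left.

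For each tested gene, the genes most like it were taken as those whose centred log2 CPM (prior count 2) had the smallest root mean square difference over the 12 libraries. The values are a description and say nothing of shared control. SOX2 lay nearest to SMARCA4 (0.326), which encodes a chromatin remodelling ATPase known to be lost from A549 and stood at 188 CPM (monoculture) and 169 CPM (co-culture) for the control, against 13.5 and 12.3 CPM for the knockout, and to GSTT2 (0.354). NKX2-1 lay nearest to MEIOSIN (0.279) and BMP8A (0.325), SOX9 to MYO1D (0.179) and FOXC1 (0.210), and SFTPD to GDPD3 (0.499) and FKBP9P1 (0.545). The close fits were HNF4A with MPRIP (0.0822) and CMIP (0.115), FOXA2 with COL18A1 (0.0803) and SYNGR3 (0.105), FOXA1 with IGF1R (0.120) and SMAD7 (0.133), and GATA6 with ATPAF1 (0.148) and ARMC10 (0.151). Among the lineage genes themselves the closest pair was FOXA1 and HNF4A (0.304), followed by FOXA2 and HNF4A (0.316). All pairs share the 12 libraries and the same step between control and knockout.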

How the data were processed

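The authors deposited 1 table of raw read counts per Ensembl gene for 12 libraries, 3 per group, and each column was matched to its sample by name. Per the submitters' processing notes, the tools were FastQC, STAR 2.7.9a, featureCounts, R 4.2.1 and DESeq2 1.36.0 with GRCh38 (hg38). Their roles, the annotation and the strand setting are not given in the sources used here. Per the labels' protocols, total RNA was isolated with miRNeasy and libraries were made with a NEBNext Ultra kit.

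Counts were fitted in R 4.3.3 with edgeR 4.0.16: filterByExpr (minimum count 10, total 15) on 4 groups, TMM, 1 model of 4 group means, and the robust quasi-likelihood F-test. A gene could pass this filter through the group where it is high, and its p-value is then no independent support. P-values were adjusted by Benjamini-Hochberg over all 16768 genes. The SE is the log2 fold change over the square root of F, and 95% intervals are approximate. Count ratios have exact intervals. Symbols were found for 42045 identifiers, and 58366 matched GENCODE 29, the source of positions, exon lengths and GC. Promoter sequences are from RefSeq (GRCh38.p14). The model was tested on simulated data with the same spread for all genes and no GC trend, which does not vouch for the calls given here. Alternatives were other scalings, no filter, DESeq2 1.42.0, a replicate block, GC offsets (loess, span 0.3), fewer groups and leaving out each library. Replicates differed by more than counting noise (chi-square per gene 8.02 to 127), and each was counted once.

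The genes and lists were chosen with earlier results of these data known, so they are no independent support. Named are all 9 genes, the locus, keratin and label genes, up to 2 called genes per direction with the most extreme change in every other list, and the 2 genes most like each tested one. Further genes are marked as named after their values were seen. SFTA3, with 2 identifiers, was left out.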

Additional observations from a re-analysis of the deposited data

How the results depend on the processing

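NKX2-1, FOXA1, HNF4A, SOX2 and SOX9 kept their direction and call in both comparisons of knockout with control under every alternative that gave a value, as did FOXA2 and SFTPD in co-culture and SOX9 for co-culture against monoculture of the knockout. Of the log2 differences of single genes under the alternatives, 749 kept direction and side of the threshold, 28 reversed, 7 newly passed and 2 no longer passed. The 2 were FOXA2 in monoculture, given above, and the 7 were HNF4A (4 settings), FOXA2, and HNF4A and SOX9 in the interaction. Depth limits NKX2-1, SFTPB and SFTPD, and NKX2-1 and SFTPD passed the count filter through the groups where they are high.

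All reversals were of genes that did not pass. For GATA6, knockout minus control in monoculture, the log2 difference was 0.15 with library size only, 0.0049 with the replicate block, 0.28 with GC offsets and 0.29 with GC offsets and the block, and -0.16 to 0.17 when 1 library was left out. For co-culture minus monoculture of the knockout, GATA6 was -0.0028 with GC offsets, and SOX2 was 0.0296 with DESeq2 size factors, 0.0999 with no filter, 0.0319 with DESeq2 and -0.31 to 0.23 over libraries left out. For co-culture minus monoculture of the control, library size only gave 0.00275 for FOXA1 and 0.0252 for HNF4A. Leaving out 1 library there gave -0.42 to 0.0364 for NKX2-1, -0.13 to 0.104 for FOXA1, -0.28 to 0.0344 for GATA6, -0.12 to 0.0298 for HNF4A and -0.32 to 0.0676 for SOX2. The SOX2 interaction was -0.0038 with library size only and -0.23 to 0.32 over libraries left out. The cause was not tested.

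Of the 8 genes, co-culture against monoculture of the knockout called 2 with library size only (SOX9 and HNF4A), 3 with GC offsets (FOXA2 as well) and 2 with GC offsets and the replicate block. The interaction called 2 with GC offsets. Leaving out 1 library gave 5 to 6 calls in monoculture, 7 in co-culture and 1 to 2 for the knockout co-culture. Over all genes, that comparison called 1907, and 3340 with no filter, 3347 with DESeq2, 1080 with the replicate block, 4881 with GC offsets, 4186 with both, 664 with only the compared groups in the fit and 536 to 5680 over libraries left out. Leaving out any of the 6 knockout libraries moved it by over 1.5 times: to 603, 654 and 1026 for replicates 1 to 3 of the monoculture and to 536, 819 and 5680 for those of the co-culture. The interaction called 301, and 1342 with no filter, 878 with DESeq2, 179 with the block, 1426 with GC offsets, 869 with both, and 119 (without replicate 2 of the control co-culture) to 3623 (without replicate 3 of the knockout co-culture). For the control, no filter called 2 genes.

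The replicate numbers did not pair the libraries. Of 18 same-numbered pairs across groups 7 had deviations that correlated above 0.1 (range -0.603 to 0.491), and 1 of 12 libraries correlated best with its own number. The replicate block changed no call of the 8 genes. With library size only, the median log2 difference of all genes moved from 0.09 to 0.24 for knockout against control in monoculture and from 0.01 to -0.11 in the interaction.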
